A study of Rattus norvegicus with 36 samples.

Results

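Chemokine and cytokine genes of H9C2 cells, a rat cardiac myoblast line, were followed across the mimics of miR-125b and the oxygen levels of the study. They were 10 genes selected by name from the 24275 genes listed in the deposited count tables, and all 10 were listed. The members were the CC chemokines *Ccl2*, *Ccl7* and *Ccl20*, the CXC chemokines *Cxcl1* and *Cxcl12*, the CX3C chemokine *Cx3cl1*, the interleukin-6 (IL-6) family cytokines *Il6*, *Lif* and *Il11*, and the colony-stimulating factor *Csf1*. A mimic was given at 25 nmol/L for 24 h, and 24 h of hypoxia or normoxia followed. The mimics were a control (MC), miR-125b itself and 4 isomiRs, which are forms of a microRNA with another end. Of these, Plus A is longer at the 3′ end, while Trim AGU, Trim AG and Trim A are shorter. Each of the 12 groups of mimic and oxygen had 3 libraries, and counts of 33 libraries from 11 groups were used here, without Normoxia MC. Hypoxic cells were in serum-free medium with low glucose and normoxic cells in fresh medium, so that oxygen, serum and glucose cannot be told apart. All groups shared 1 immortal cell line, and the amount of mimic taken up was not measured in these libraries.

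Chemokines are small secreted proteins that guide the movement of leukocytes and progenitor cells through G protein-coupled receptors. CCL2 and CCL7 attract monocytes, CCL20 attracts lymphocytes and dendritic cells, CXCL1 attracts neutrophils, and CX3CL1 is anchored in the membrane. CXCL12 recruits progenitor cells through CXCR4 and is bound by the scavenger receptor ACKR3. The cytokines IL-6, LIF and IL-11 signal through receptors that share the subunit gp130, encoded by *Il6st*, to the kinase JAK1 and the transcription factor STAT3, which induces its own inhibitor *Socs3*. CSF1 is the growth factor of macrophages and acts through CSF1R. After injury of the heart such signals come from myocytes and stromal cells as well as from leukocytes.

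The 5 mimics that carry the sequence of miR-125b differ at the 3′ end alone. Their sequences follow, because the comparisons turn on these ends. The mature sequence of rat miR-125b-5p is from RefSeq (GRCr8, chr11:29732588-29732609, plus strand), and the isomiRs were derived from it as their names describe. The seed, bases 2 to 8, is in capitals.
miR-125b: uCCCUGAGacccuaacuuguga
Plus A: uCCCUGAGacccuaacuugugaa
Trim A: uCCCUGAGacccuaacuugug
Trim AG: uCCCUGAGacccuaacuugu
Trim AGU: uCCCUGAGacccuaacuug
All 5 share the seed CCCUGAG, and their lengths run from 19 bases in Trim AGU to 23 bases in Plus A.

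Total counts per library were 28361216 to 42672584, with a median of 29923694. The 3 Hypoxia Trim AG libraries were the deepest, at 39940087 to 42672584, and no other library exceeded 34505938. Hypoxia Trim AGU replicate 2 had a count in 16981 genes, the fewest of all libraries, where each other library had 18342 or more. It was the lowest of its group in *Lif*, *Csf1*, *Cxcl12* and *Ccl2* and the highest in *Cxcl1*. No member lost a call without it, while *Cxcl1* against MC and *Il11* against miR-125b gained a call. Values are in CPM, the count scaled by the library total, unless FPKM is named. In normoxia, replicate 1 of Plus A and replicate 1 of miR-125b stood apart from their groups. *Cav1*, the scaffold gene of caveolae, was at 269, 98.0 and 98.3 CPM in Normoxia Plus A and at 102, 282 and 263 CPM in Normoxia miR-125b. In hypoxia it was at 100.2, 93.9 and 94.5 CPM with Plus A and at 241, 246 and 241 CPM with miR-125b. In this gene, each of the 2 libraries was thus at the level of the group the other is labelled as, and went against its own label. Whether they were exchanged was not tested, and they were kept as labelled. Calls of members that changed when 1 of these libraries was left out are given below. Both were left out together only for Plus A against miR-125b, in normoxia and in the response to hypoxia. Of 12 muscle and cardiac lineage markers, the myoblast genes *Myod1* and *Myog* were at 19.9 to 138 CPM and 11.3 to 352 CPM as group means. The cardiac factors *Nkx2-5* and *Tbx5* stayed at or below 0.795 and 0.0781 CPM, while *Gata4* was high enough to be tested. Of the same marker list, *Acta1*, *Tnnt2*, *Actc1* and *Des* were at means of 62.0, 53.9, 3.54 and 2.23 CPM over the 33 libraries. *Mymk* was not listed. Of 8 macrophage and leukocyte markers, *Ptprc* and *Adgre1* stayed at or below 0.0974 and 0.0438 CPM as group means. The highest of the 8, *Cd14* and *Cd68*, were at means of 16.1 and 1.21 CPM over the 33 libraries.

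As listed in the deposited tables, whose genome build is not given in the sources used here, *Ccl2* and *Ccl7* lie beside each other on the plus strand (chr10:69412017-69413870 and chr10:69423086-69424979). *Cxcl1* is on the minus strand at chr14:18743685-18745457 and *Cxcl12* on the plus strand at chr4:149261044-149273891. *Il6* is at chr4:3043231-3047807, *Lif* at chr14:84482674-84500642 and *Il11* at chr1:72635267-72643255, all on the plus strand. *Csf1* is at chr2:210522375-210550560 and *Cx3cl1* at chr19:10644244-10653800 on the minus strand, and *Ccl20* is at chr9:88918433-88921001 on the plus strand. Per length, *Cxcl12* was the most abundant of the 10 transcripts, with a mean of 75.5 FPKM over the 33 libraries, a level scaled by gene length and library total. *Csf1* followed at 28.8 FPKM and *Lif* at 9.42 FPKM. *Il6* was at 6.67, *Cxcl1* at 3.77, *Ccl7* at 2.44, *Il11* at 1.35 and *Ccl2* at 0.650 FPKM. *Ccl20* and *Cx3cl1* were at 0.0207 and 0.0184 FPKM, and neither passed the filter on low counts in any comparison, so that tests were possible for 8 of the 10 genes.

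**Figure D1:**
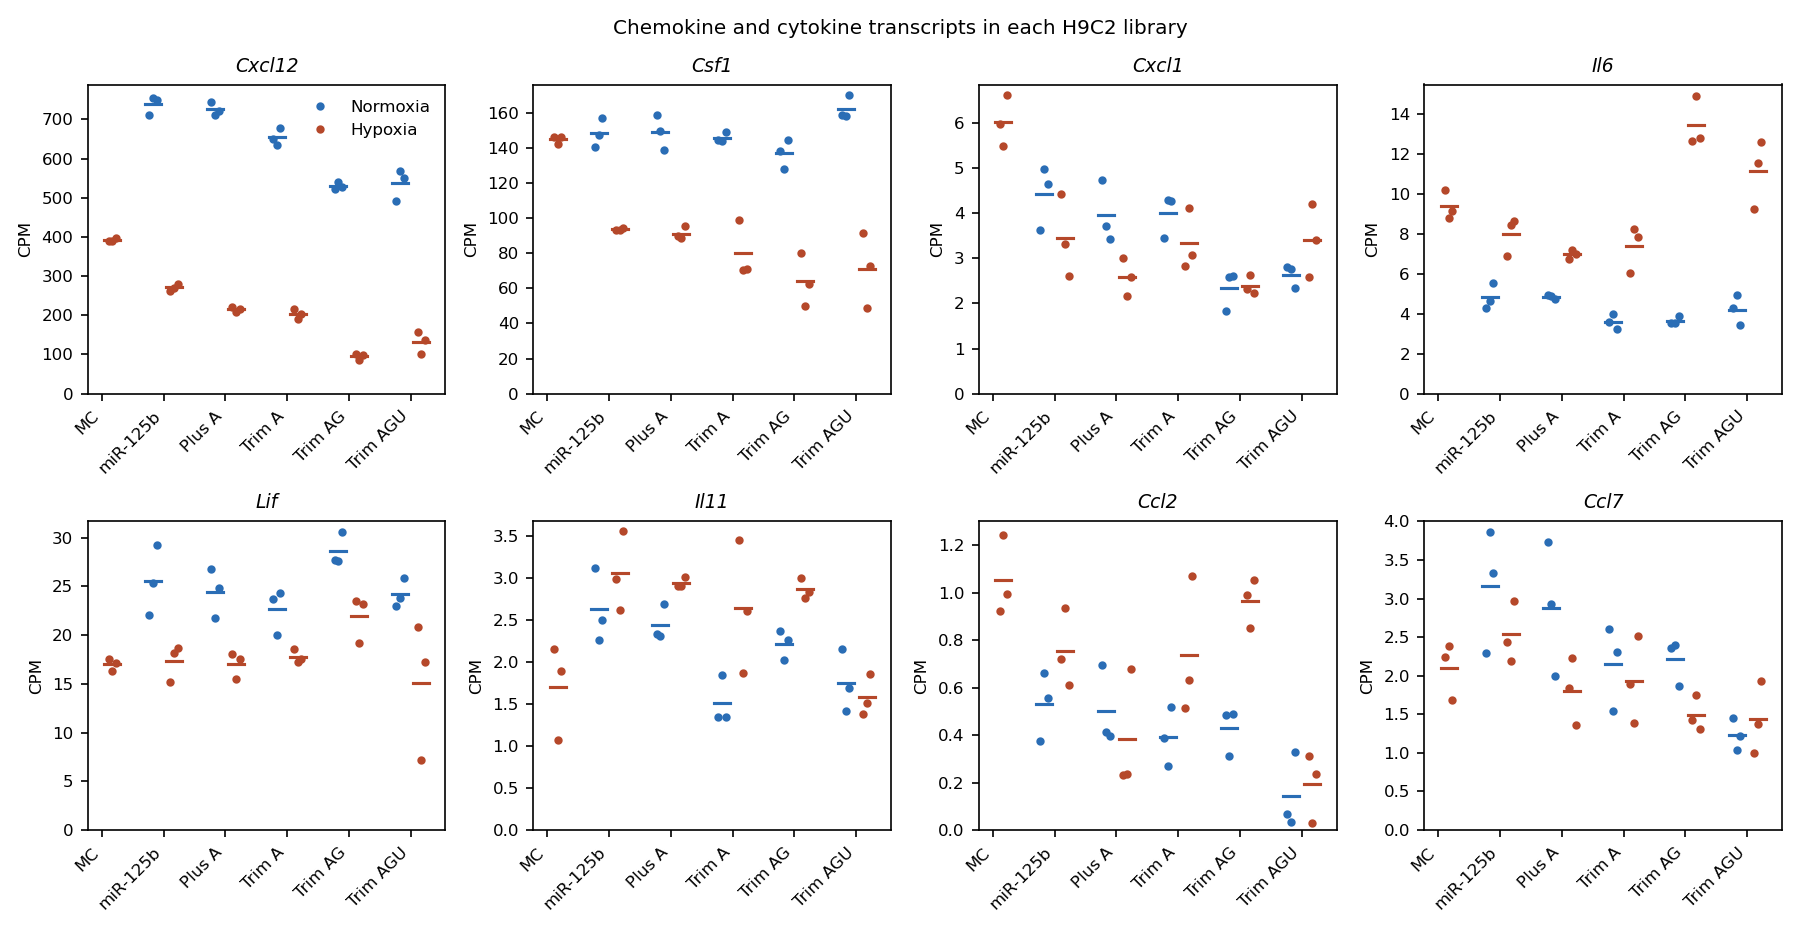
CPM of the 8 tested genes (y axes, linear from 0) in each library, by mimic (x axis) and oxygen (blue normoxia, red hypoxia), with points for libraries and short lines for group means of 3. Cxcl12 is lower in each hypoxia group than in every normoxia group, while Il6 is higher in each hypoxia group than in every normoxia group; Normoxia MC is not shown.

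*Cxcl12* was lower in every hypoxia library than in any normoxia library with counts, which leaves out Normoxia MC. In normoxia it was at 711, 756 and 749.8 CPM with miR-125b, 743, 712 and 722 with Plus A and 649.8, 635 and 679 with Trim A. With the shortest mimics it was at 523, 541 and 527 CPM (Trim AG) and 492, 568 and 550.4 CPM (Trim AGU) in normoxia. In hypoxia the 3 MC libraries were the highest at 389, 389 and 398 CPM, followed by miR-125b at 263, 271 and 279. Plus A had 222, 208 and 215 CPM and Trim A 215, 189 and 202, and these groups overlapped. Trim AG was the lowest at 102, 84.6 and 99.2 CPM, overlapping with Trim AGU at 156, 101 and 136. In the order of the 11 groups, 4 of the 10 pairs of neighbours overlapped in range. In bulk RNA, less transcript per cell and fewer cells that carry it cannot be told apart.

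Of the 11 groups with counts, *Cxcl1*, the neutrophil attractant, was highest in Hypoxia MC at 5.98, 5.51 and 6.62 CPM, above every other library. These groups do not include Normoxia MC. By the authors' means of normalized counts, *Cxcl1* was at 249 in Normoxia MC and 117 in Normoxia Plus A. With miR-125b in hypoxia it was at 4.43, 3.32 and 2.62 CPM and with Trim AG at 2.32, 2.63 and 2.23. In normoxia it ranged from 3.63, 4.98 and 4.66 CPM with miR-125b to 1.84, 2.58 and 2.62 CPM with Trim AG. Of the 10 pairs of neighbours in the order of groups, 8 overlapped. *Cx3cl1* stayed near the detection floor, with 0 to 12 counts per library and 10 of 33 libraries at 0. A count of 0 allows up to 3 counts, which is 0.0703 CPM in the deepest and 0.106 CPM in the shallowest library, and covers counting error only. Its highest library was 1 of Hypoxia miR-125b with 12 counts, beside 0 and 5 counts in the other two.

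The CC chemokines were low. *Ccl7* ranged from 30 to 111 counts per library. It was at 2.29, 3.86 and 3.34 CPM in Normoxia miR-125b and 1.45, 1.03 and 1.22 in Normoxia Trim AGU, at the ends of an order in which all 10 pairs of neighbours overlapped. *Ccl2* was at 0.926, 1.24 and 0.995 CPM in Hypoxia MC and 0.993, 0.851 and 1.05 in Hypoxia Trim AG, the highest groups. The lowest of the 11 groups were those of Trim AGU, with 10, 1 and 8 counts in hypoxia and 2, 1 and 10 counts in normoxia. Normoxia MC is not in these orders. By the authors' means of normalized counts, *Ccl2* was at 3.90 in Normoxia MC and 14.9 in Normoxia Plus A, and *Ccl7* at 30.4 and 85.4. *Ccl20* had 0 counts in all 15 normoxia libraries and in 10 of 18 hypoxia libraries, and 1 to 4 counts in the other 8, so that no fold is given.

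The IL-6 family was led by *Lif*, which keeps stem cells undifferentiated and promotes growth of cardiac myocytes. *Lif* was at 27.7, 27.6 and 30.5 CPM in Normoxia Trim AG, the highest group, and at 22.1, 25.4 and 29.3 in Normoxia miR-125b. In hypoxia it was at 17.6, 16.3 and 17.1 CPM with MC, 15.2, 18.2 and 18.7 with miR-125b and 23.5, 19.2 and 23.2 with Trim AG. The Hypoxia Trim AGU libraries spread from 7.19 CPM in replicate 2 to 20.8 CPM in replicate 1, the widest spread of *Lif* in the 11 groups. *Il6*, the acute-phase cytokine, was at 12.6, 14.9 and 12.8 CPM in Hypoxia Trim AG and 9.23, 11.5 and 12.6 in Hypoxia Trim AGU. The MC libraries in hypoxia were at 10.2, 8.80 and 9.16 CPM, miR-125b at 6.87, 8.45 and 8.65 and Plus A at 6.75, 7.18 and 6.99. Every normoxia library with counts was lower, between 3.24 and 5.53 CPM, and Normoxia MC is not among these. *Il11*, a cytokine of fibroblast activation, was at 2.15, 1.07 and 1.89 CPM in Hypoxia MC, 2.99, 2.61 and 3.55 with miR-125b and 1.38, 1.51 and 1.85 with Trim AGU, and all 10 pairs of neighbouring groups overlapped.

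*Csf1* ran in the normoxia groups from 138, 128 and 145 CPM with Trim AG to 159, 158 and 170.3 with Trim AGU. In hypoxia it was at 146, 142 and 147 CPM with MC and at 93.5, 93.3 and 94.3 with miR-125b. The MC values lay within the range of these normoxia groups, which do not include Normoxia MC. By the authors' means of normalized counts, *Csf1* was at 7237 in Normoxia MC and 4433 in Normoxia Plus A. Whether MC cells differed between hypoxia and normoxia was not tested. Plus A had 90.0, 88.5 and 95.5 CPM, Trim A 98.9, 70.4 and 71.4, Trim AG 80.0, 49.9 and 62.6 and Trim AGU 91.6, 48.7 and 72.6. All 15 libraries of these 5 hypoxia groups were below every other library. Spread within Trim A, Trim AG and Trim AGU was wider than within miR-125b, whose SD was 0.546 CPM against 15.1 to 21.5 CPM.

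Which of these transcripts differed between each mimic and MC in hypoxia was tested first. *Cxcl1*, *Cxcl12* and *Csf1* had negative log2 fold changes with all 5 mimics. *Csf1* fell with all 5, *Cxcl12* with 4 and *Cxcl1* with 4, while *Il11* rose with miR-125b, Plus A and Trim AG. A gene was called with edgeR's quasi-likelihood test at a Benjamini-Hochberg adjusted p-value over all tested genes below 0.05 and a fold of at least 1.5. The p-values measure the spread between these libraries, which may be technical, since nothing states that they came from separate cultures. Calls numbered 18 over the 5 comparisons. The 5 comparisons share the MC libraries and are not independent of each other.

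**Figure D2:**
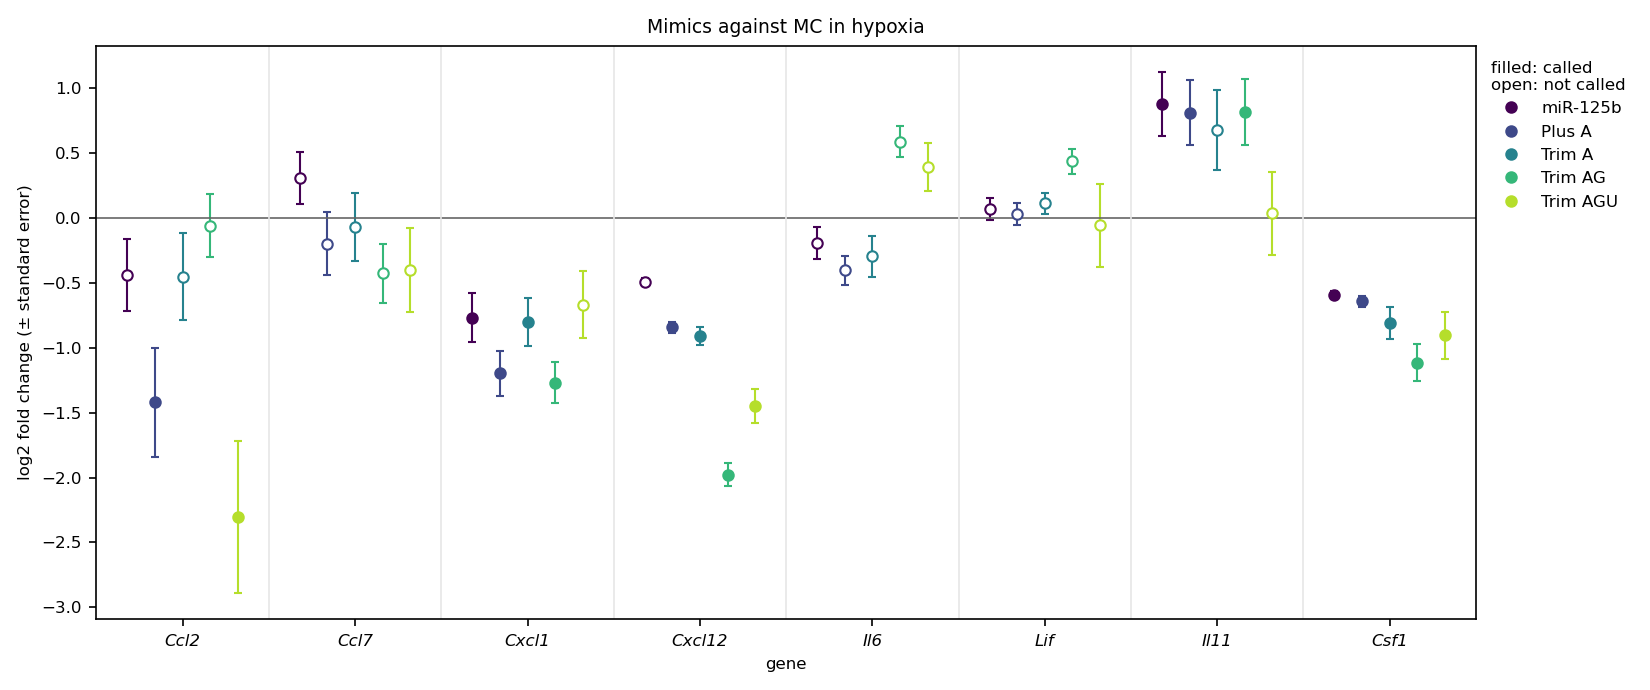
Log2 fold change (y axis, ± standard error) of the 8 tested genes (x axis) for each mimic against MC in hypoxia, 3 libraries a group, with filled points for called genes. Csf1 and Cxcl12 lie below 0 with all 5 mimics and reach -1.12 and -1.98 with Trim AG, whereas Il11 is above 0.80 with miR-125b, Plus A and Trim AG.

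With miR-125b, *Csf1* fell with a log2 fold change of -0.59 (SE 0.030, adjusted p = 3.69e-08) and *Cxcl1* with -0.77 (SE 0.19, adjusted p = 0.00461). *Il11* rose with a log2 fold change of 0.88 (SE 0.25, adjusted p = 0.0103). *Cxcl12* had a log2 fold change of -0.50 (SE 0.030, adjusted p = 1.39e-07), which is under the fold threshold. These were 1 gene higher and 2 lower of 8 tested, where the shares over all genes were 9.43% called higher and 12.5% called lower. With Plus A, 1 gene was higher and 4 were lower, beside 10.5% called higher and 14.4% called lower over all genes. *Cxcl1* fell with a log2 fold change of -1.20 (SE 0.17, adjusted p = 0.000214) and *Cxcl12* with -0.84 (SE 0.043, adjusted p = 1.86e-07), *Csf1* with -0.64 (SE 0.046, adjusted p = 1.62e-06) and *Ccl2* with -1.42 (SE 0.42, adjusted p = 0.0152). *Il11* rose with a log2 fold change of 0.81 (SE 0.25, adjusted p = 0.0182). The call of *Ccl2* was lost without Hypoxia MC replicate 2, at -1.29 (adjusted p = 0.0586), and without Hypoxia Plus A replicate 2, at -1.17 (adjusted p = 0.0574). Without Hypoxia MC replicate 2 that of *Il11* was lost too, at 0.56 (adjusted p = 0.0423).

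With Trim A, 3 of 8 genes fell and 0 rose, against 12.4% called higher and 15.7% called lower over all genes. Of all 15183 genes tested, 8898 were at an unadjusted p below 0.05 by edgeR, and DESeq2 called 1894 higher and 2358 lower. By edgeR, 3 members were at an unadjusted p below 0.05, and DESeq2 also called 3. They were *Cxcl12* at a log2 fold change of -0.91 (SE 0.068, adjusted p = 2.93e-05), *Csf1* at a log2 fold change of -0.81 (SE 0.12, adjusted p = 0.000895) and *Cxcl1* at a log2 fold change of -0.81 (SE 0.18, adjusted p = 0.00683). *Il11* had a log2 fold change of 0.67 (SE 0.31, adjusted p = 0.0985), which became a call with the replicate block, at 0.69 (adjusted p = 0.0338), and with all libraries in 1 fit, at 0.68 (adjusted p = 0.0148).

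With Trim AG, *Cxcl12* had the largest fold, with a log2 fold change of -1.98 (SE 0.086, adjusted p = 8.15e-07). *Cxcl1* fell with a log2 fold change of -1.27 (SE 0.16, adjusted p = 0.000171) and *Csf1* with -1.12 (SE 0.14, adjusted p = 0.00020). *Il11* rose with a log2 fold change of 0.81 (SE 0.25, adjusted p = 0.0212), but was at 0.57 (adjusted p = 0.0496) without Hypoxia MC replicate 2. *Il6* and *Lif* had a log2 fold change of 0.58 (SE 0.12, adjusted p = 0.00266) and 0.43 (SE 0.095, adjusted p = 0.00411), both under the fold threshold. *Il6* passed it without Hypoxia MC replicate 1, at 0.65 (adjusted p = 0.00638), without Hypoxia Trim AG replicate 1, at 0.64 (adjusted p = 0.00167), and without Hypoxia Trim AG replicate 3, at 0.62 (adjusted p = 0.00746). The calls were 1 higher and 3 lower of 8, beside 17% called higher and 20.2% called lower over all genes.

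With Trim AGU, 3 of 8 genes fell, beside 11.4% called higher and 12.4% called lower over all genes. *Cxcl12* fell with a log2 fold change of -1.45 (SE 0.13, adjusted p = 0.00103), *Csf1* with -0.91 (SE 0.18, adjusted p = 0.0124) and *Ccl2* with -2.31 (SE 0.58, adjusted p = 0.0265). The call of *Csf1* was lost without any 1 of the 3 MC libraries, at adjusted p-values of 0.0545, 0.0531 and 0.0563 for replicates 1, 2 and 3. *Ccl2*, at 1 to 10 counts in the Trim AGU libraries, was lost without MC replicate 1, 2 or 3, at adjusted p-values of 0.0841, 0.104 and 0.0921. Without Hypoxia Trim AGU replicate 3 it was at -2.45 (adjusted p = 0.0711) and with the replicate block at -2.40 (adjusted p = 0.0597). *Cxcl1* had a log2 fold change of -0.67 (SE 0.25, adjusted p = 0.089), and was called without Hypoxia Trim AGU replicate 2, at -0.92 (adjusted p = 0.00527), with library size in place of TMM, at -0.83 (adjusted p = 0.0358), and with all libraries in 1 fit, at -0.68 (adjusted p = 0.00874). In this comparison library size alone moved the median log2 fold change of all genes from -0.016 to -0.15, and the calls over all genes from 1713 higher and 1857 lower to 1133 higher and 2217 lower.

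The median log2 fold change of the 8 tested genes was -0.32 with miR-125b and -0.53 with its Plus A form, -0.54 with Trim AGU, -0.25 for Trim AG and -0.38 for Trim A, where the median of all genes was within 0.016 of 0. Markers of muscle lineage moved with the same contrast. Their summed level over 11 listed markers was 926 to 941 CPM in Hypoxia MC and 150 to 265 CPM across the libraries of the other 5 hypoxia groups. Of the 9 tested, 4 each fell with miR-125b and Trim AG, 5 each with Plus A and Trim AGU and 6 with Trim A, while 1 rose with miR-125b (*Myh6*, a cardiac myosin) and 1 with Trim AG (*Gata4*, a cardiac transcription factor), both named after their values were seen. The shares over all genes were 9.43% to 17% called higher and 12.4% to 20.2% called lower. *Myog*, which drives the differentiation of myoblasts, had log2 fold changes of -2.42 with miR-125b and -4.90 with Trim AG. The part of these markers in the results on chemokines and cytokines was not tested.

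The isomiRs were next compared with miR-125b in hypoxia, which asks what the 3′ end changes when the seed is shared. *Cxcl12* fell with Trim AG and Trim AGU, and Trim AG also had lower *Ccl7* and higher *Il6*. Plus A and Trim A gave 0 calls among the 8 genes. These comparisons share the Hypoxia miR-125b libraries and are not independent of each other. With Trim AG, *Cxcl12* fell with a log2 fold change of -1.49 (SE 0.081, adjusted p = 1.76e-05) and *Il6* rose with a log2 fold change of 0.77 (SE 0.13, adjusted p = 0.00238). *Ccl7* fell with a log2 fold change of -0.74 (SE 0.21, adjusted p = 0.023). That last call was lost without Hypoxia Trim AG replicate 3, at -0.65 (adjusted p = 0.0827), without Hypoxia miR-125b replicate 1, at -0.76 (adjusted p = 0.0578), and without Hypoxia miR-125b replicate 3, at -0.60 (adjusted p = 0.0987). The shares over all genes were 7.85% called higher and 11.5% called lower. *Csf1* had a log2 fold change of -0.53 (SE 0.14, adjusted p = 0.0167), under the fold threshold, and was called without Hypoxia Trim AG replicate 1, at -0.71 (adjusted p = 0.000162). *Lif* had a log2 fold change of 0.35 (SE 0.11, adjusted p = 0.031), also under the threshold. The Hypoxia Trim AG libraries were the deepest, and their sums of 8 fibroblast markers were below those of every miR-125b library, at 9383 to 18883 CPM against 42996 to 45237 CPM with miR-125b, and the part of both in these results was not tested.

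With Trim AGU in hypoxia, *Cxcl12* fell with a log2 fold change of -0.97 (SE 0.13, adjusted p = 0.0143) against miR-125b, where the shares over all genes were 1.83% called higher and 1.93% called lower. The call was lost without Hypoxia Trim AGU replicate 3, at -0.95 (adjusted p = 0.0757), and without miR-125b replicate 1, 2 or 3, at adjusted p-values of 0.0925, 0.105 and 0.103. With the replicate block it was at -0.98 (adjusted p = 0.076). *Il6* and *Il11* had a log2 fold change of 0.58 (SE 0.19, adjusted p = 0.143) and -0.86 (SE 0.24, adjusted p = 0.0974). They were called without 1 Trim AGU library each, *Il6* without replicate 1 at 0.72 (adjusted p = 0.046) and *Il11* without replicate 2 at -0.88 (adjusted p = 0.039). DESeq2 also called *Il11*, at -0.84 (adjusted p = 0.0406). For Plus A, the shares over all genes were 0.707% called higher and 1.32% called lower. DESeq2 likewise called 0 members, and 2 had an unadjusted p below 0.05 in edgeR, as had 4723 of all 15134 genes. *Cxcl12* was at a log2 fold change of -0.35 (SE 0.041, adjusted p = 0.00111). *Ccl2* reached a call without Hypoxia Plus A replicate 3, at -1.69 (adjusted p = 0.0352). For Trim A, the shares over all genes were 0.457% called higher and 0.417% called lower. DESeq2 called 0 members there too, and *Cxcl12*, at a log2 fold change of -0.42 (SE 0.066, adjusted p = 0.0269), was the 1 with an unadjusted p below 0.05. Of all 15115 genes tested, 3547 had such a p in edgeR.

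The same isomiRs were compared with miR-125b in normoxia, in comparisons that share the Normoxia miR-125b libraries and are not independent of each other. *Cxcl1* fell with Trim AG and Trim AGU, and *Ccl7* fell with Trim AGU. *Cxcl1* was at a log2 fold change of -0.96 (SE 0.20, adjusted p = 0.00453) with Trim AG and -0.75 (SE 0.19, adjusted p = 0.0186) with Trim AGU. Its call with Trim AGU was lost without Normoxia Trim AGU replicate 3, at -0.67 (adjusted p = 0.0714), and without Normoxia miR-125b replicate 2 or 3, at -0.66 (adjusted p = 0.0788) and -0.72 (adjusted p = 0.0631). *Ccl7* was at a log2 fold change of -1.36 (SE 0.26, adjusted p = 0.00519) with Trim AGU, and at a log2 fold change of -0.56 (SE 0.22, adjusted p = 0.0739) with Trim AG, where it became a call without Normoxia miR-125b replicate 1, at -0.74 (adjusted p = 0.0161). *Cxcl12* had a log2 fold change of -0.52 (SE 0.047, adjusted p = 5.11e-05) with Trim AG and -0.47 (SE 0.077, adjusted p = 0.00264) with Trim AGU, both under the fold threshold. The shares over all genes were 7.58% called higher and 6.36% called lower for Trim AG, and 6.22% called higher and 5.16% called lower for Trim AGU. *Ccl2* with Trim AGU, at 1 to 10 counts per library, had a log2 fold change of -1.83 (SE 0.66, adjusted p = 0.0706), and was called without Normoxia Trim AGU replicate 3, at -3.25 (adjusted p = 0.0179).

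Plus A and Trim A gave 0 calls of members against miR-125b in normoxia. For Trim A, the shares over all genes were 0.367% called higher and 0.0475% called lower. DESeq2 called 0 of the 8 as well, and 3 members had an unadjusted p below 0.05 in edgeR, as had 2758 of all 14732 genes. For Plus A, the shares over all genes were 0% called higher and 0% called lower with edgeR, with 404 genes at an unadjusted p below 0.05. DESeq2 called 1 gene higher and 0 lower there. None of the 8 members had an unadjusted p below 0.05, and DESeq2 called 0. Their log2 fold changes were between -0.15 and 0.018. Without the first replicate of both groups, which stood apart in *Cav1*, they were between -0.56 and 0.092, again with 0 calls. Over all genes, that removal took the calls from 0 to 53 higher and 113 lower of 14856, and those at an unadjusted p below 0.05 from 404 to 3249, so that the 0 calls with all libraries rest on these 2.

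Hypoxia was then compared with normoxia under each mimic other than MC. *Cxcl12* and *Csf1* fell under all 5 mimics. *Il6* rose under 4 and *Lif* fell under 2. Called genes numbered 19 over the 5 comparisons, which share no library with each other.

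**Figure D3:**
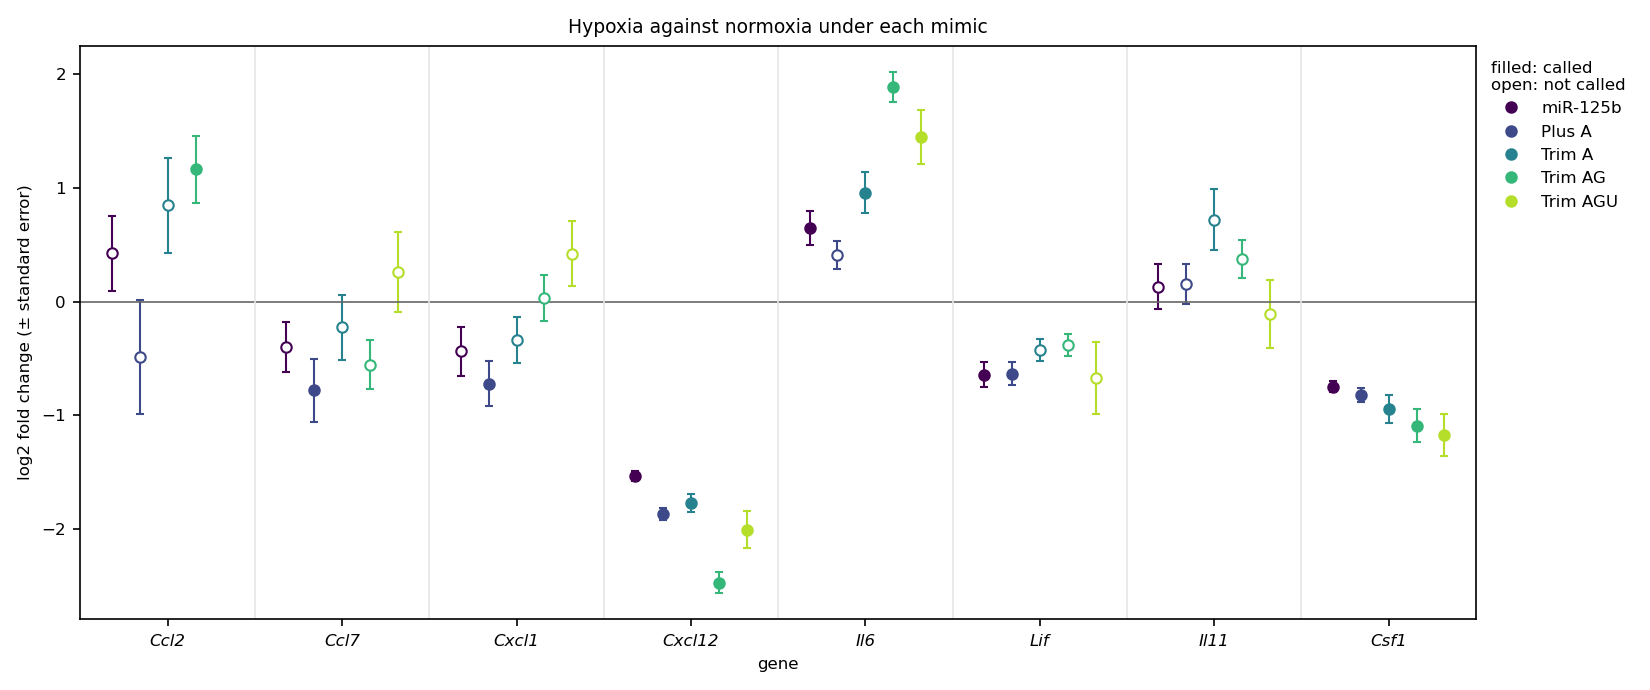
Log2 fold change (y axis, ± standard error) of the 8 tested genes (x axis) in hypoxia against normoxia under each mimic, 3 libraries a group, with filled points for called genes; Ccl2 was not tested with Trim AGU. Cxcl12 runs from -1.53 with miR-125b to -2.47 with Trim AG, and Il6 from 0.41 with Plus A to 1.89 with Trim AG.

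*Cxcl12* fell with a log2 fold change of -1.53 (SE 0.044, adjusted p = 6.43e-08) with miR-125b, -1.86 (SE 0.052, adjusted p = 3e-08) with Plus A and -1.77 (SE 0.077, adjusted p = 1.05e-06) with Trim A. With Trim AG its log2 fold change was -2.47 (SE 0.092, adjusted p = 5.25e-07) and under Trim AGU -2.00 (SE 0.16, adjusted p = 0.000348). *Csf1* fell with a log2 fold change of -0.75 (SE 0.048, adjusted p = 2.66e-06), -0.82 (SE 0.061, adjusted p = 5.35e-06), -0.94 (SE 0.12, adjusted p = 0.000379), -1.09 (SE 0.15, adjusted p = 0.000255) and -1.17 (SE 0.19, adjusted p = 0.0046), in the same order of mimics. Neither gene lost a call when any single library was left out. The shares over all genes were 9.34% called higher and 11.5% called lower with miR-125b, and 10% called higher and 12.8% called lower with Plus A. They were 12% called higher and 14.5% called lower with Trim A, 15% called higher and 17.8% called lower with Trim AG, and 13.6% called higher and 13.4% called lower with Trim AGU.

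*Il6* rose with a log2 fold change of 0.65 (SE 0.15, adjusted p = 0.0054) with miR-125b, 0.96 (SE 0.18, adjusted p = 0.00242) with Trim A, 1.89 (SE 0.13, adjusted p = 7.78e-06) with Trim AG and 1.45 (SE 0.24, adjusted p = 0.00491) with Trim AGU. With Plus A it had a log2 fold change of 0.41 (SE 0.12, adjusted p = 0.0188), under the fold threshold. The call with miR-125b was lost without Normoxia miR-125b replicate 1, at 0.57 (adjusted p = 0.0126), one of the libraries that stood apart. *Lif* fell with a log2 fold change of -0.64 (SE 0.11, adjusted p = 0.00125) with miR-125b and -0.63 (SE 0.10, adjusted p = 0.000621) with Plus A. Its call with miR-125b fell under the fold threshold without Hypoxia miR-125b replicate 1, at -0.55 (adjusted p = 0.00643), and without Normoxia miR-125b replicate 3, at -0.54 (adjusted p = 0.00419). That with Plus A did so without Hypoxia Plus A replicate 2, at -0.57 (adjusted p = 0.00392). With library size in place of TMM, *Lif* was at -0.56 (adjusted p = 0.00298) with miR-125b and -0.52 (adjusted p = 0.00223) with Plus A. *Lif* had a log2 fold change of -0.42 (SE 0.098, adjusted p = 0.00735) with Trim A, -0.38 (SE 0.095, adjusted p = 0.0083) with Trim AG and -0.67 (SE 0.31, adjusted p = 0.139) with Trim AGU.

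*Ccl2* rose in hypoxia with Trim AG, with a log2 fold change of 1.16 (SE 0.30, adjusted p = 0.00879), and was not called with miR-125b, Plus A or Trim A. With Plus A, *Ccl7* fell with a log2 fold change of -0.78 (SE 0.27, adjusted p = 0.0391) and *Cxcl1* with -0.72 (SE 0.20, adjusted p = 0.013). The call of *Cxcl1* was lost without Hypoxia Plus A replicate 2, at -0.61 (adjusted p = 0.052). *Ccl7* lost its call without Hypoxia Plus A replicate 1 or 3 and without Normoxia Plus A replicate 1 or 2, at adjusted p-values of 0.0794, 0.123, 0.124 and 0.0841, and with library size alone, at -0.67 (adjusted p = 0.0691). Calls were gained by *Ccl7* with miR-125b without Normoxia miR-125b replicate 1, at -0.59 (adjusted p = 0.0314), and by *Cxcl1* without Hypoxia miR-125b replicate 1, at -0.66 (adjusted p = 0.0361). *Ccl7* with Trim AG was called without Hypoxia Trim AG replicate 2, at -0.69 (adjusted p = 0.0257). *Il11* with Trim A, at a log2 fold change of 0.72 (SE 0.27, adjusted p = 0.0506), was called with DESeq2, with library size alone, with all libraries in 1 fit and without Hypoxia Trim A replicate 2, at adjusted p-values of 0.0452, 0.0360, 0.00993 and 0.0228. Library size alone moved the median of all genes with Plus A from 0.013 to 0.12. It changed the calls from 1503 higher and 1924 lower to 2012 higher and 1546 lower there, and from 1403 higher and 1732 lower to 1799 higher and 1449 lower with miR-125b.

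Whether the response to hypoxia differed between an isomiR and miR-125b was tested as an interaction. It did for Trim AG, where *Cxcl12* fell further and *Il6* rose further, with differences in log2 fold change of -0.98 (SE 0.094, adjusted p = 3.61e-05) and 1.20 (SE 0.20, adjusted p = 0.00147). Both calls held without any single library of these groups. These were 1 higher and 1 lower of 8 genes, where the shares over all genes were 4.29% called higher and 6.97% called lower. With the other isomiRs, 0 members were called by edgeR and 0 by DESeq2, while 1, 1 and 4 members had an unadjusted p below 0.05 for Plus A, Trim A and Trim AGU. Of all genes tested, 2509 of 15569, 3481 of 15534 and 3428 of 15525 had such a p in edgeR, in the same order. The shares over all genes were 0.00642% called higher and 0.0128% called lower for Plus A, 0.122% called higher and 0.483% called lower for Trim A and 0.612% called higher and 0.354% called lower for Trim AGU. For Trim AGU, *Il6* had a log2 fold change of 0.81 (SE 0.28, adjusted p = 0.148) as interaction and *Csf1* -0.42 (SE 0.19, adjusted p = 0.22). Both were called without Hypoxia Trim AGU replicate 1, at 0.97 (adjusted p = 0.0307) and -0.59 (adjusted p = 0.0208). With all libraries in 1 fit, *Il6* was called as well, at 0.77 (adjusted p = 0.0193). With library size alone the median of all genes for Trim AGU moved from 0.018 to -0.11, and the calls from 95 higher and 55 lower to 73 higher and 65 lower. The interactions share the libraries of miR-125b and are not independent of each other.

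For Normoxia MC the authors' mean normalized counts are the values at hand, from a table normalized on its own, with no error and no test. The authors' means of *Csf1* were 7237 with MC and 4433 with Plus A. Those of *Cxcl12* were 25970 and 21559, of *Cxcl1* 249 and 117, and of *Il6* 178 and 144. *Lif* was at 525 with MC and 726 with Plus A, *Il11* at 37.6 and 72.7, *Ccl7* at 30.4 and 85.4, and *Ccl2* at 3.90 and 14.9. Thus 4 of these 8 means were higher with MC and 4 with Plus A.

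The receptors of the 10 ligands were a short list in these cells. Of 19 symbols listed, 10 were in the tables and 7 were tested. *Ackr3*, the scavenger receptor of CXCL12, was at group means of 235 to 406 CPM, while *Cxcr4*, its signalling receptor, was at or below 0.0228 CPM as group means. *Il6st*, the shared gp130 subunit, was at 131 to 281 CPM. Against MC in hypoxia, 3 of 7 receptors fell with miR-125b and 4 each with Plus A and Trim AG. With Trim A and Trim AGU 2 each fell, and none rose with any mimic. The shares over all genes were 9.43% to 17% called higher and 12.4% to 20.2% called lower. *Lifr*, the receptor of LIF, fell with a log2 fold change of -1.74 (SE 0.16, adjusted p = 3.16e-06) with miR-125b and -2.02 (SE 0.15, adjusted p = 9.99e-06) with Trim AG. Its log2 fold changes were -1.20 (SE 0.13, adjusted p = 2.82e-05) for Plus A and -1.55 (SE 0.15, adjusted p = 0.000102) for Trim A. *Csf1r*, the receptor of CSF1, was singled out after its values were seen. It fell with all 5 mimics, and was at 1.62 ± 0.275 CPM (SD, n = 3) in Hypoxia MC and 0.585 ± 0.182 CPM in Hypoxia Trim AG. *Ackr3* fell with a log2 fold change of -0.71 (SE 0.037, adjusted p = 4.74e-08) with miR-125b and -0.68 (SE 0.10, adjusted p = 0.000526) with Trim AG. *Il6st* fell with a log2 fold change of -0.78 (SE 0.056, adjusted p = 1.79e-06) with Plus A and -0.87 (SE 0.079, adjusted p = 2.84e-05) with Trim AG. Against normoxia, *Lifr* and *Osmr*, the oncostatin M receptor, fell under all 5 mimics, *Lifr* with log2 fold changes of -1.27 with Plus A to -2.91 with Trim AGU and *Osmr* with log2 fold changes of -0.82 with Trim AG to -1.83 with Trim AGU.

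Downstream of these receptors, 15 of 15 listed JAK-STAT genes were tested. Against MC in hypoxia, 3, 4, 4, 8 and 6 of them fell and 2, 0, 0, 1 and 0 rose, with the mimics in order of the sequences shown above. Their median log2 fold changes were -0.16, -0.22, -0.26, -0.69 and -0.51. Of all genes tested, 9.43% to 17% were called higher and 12.4% to 20.2% lower in these comparisons. *Stat3*, the main transcription factor of gp130 signalling, fell with all 5 mimics, with a log2 fold change of -1.07 (SE 0.032, adjusted p = 8.81e-10) with miR-125b and -1.78 (SE 0.098, adjusted p = 2.44e-06) with Trim AG. The feedback inhibitors *Socs2* and *Socs3* fell with all 5 as well, *Socs3* with a log2 fold change of -1.02 (SE 0.17, adjusted p = 0.000289) with miR-125b and -1.23 (SE 0.17, adjusted p = 0.000144) with Plus A. *Jak1* and *Ptpn11*, at means of 164 and 334 CPM over all libraries, were not called in any of the 5. Against normoxia, *Stat3* and *Socs3* fell under all 5 mimics, *Stat3* with log2 fold changes of -0.61 with Plus A to -0.98 with Trim AGU.

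**Figure D4:**
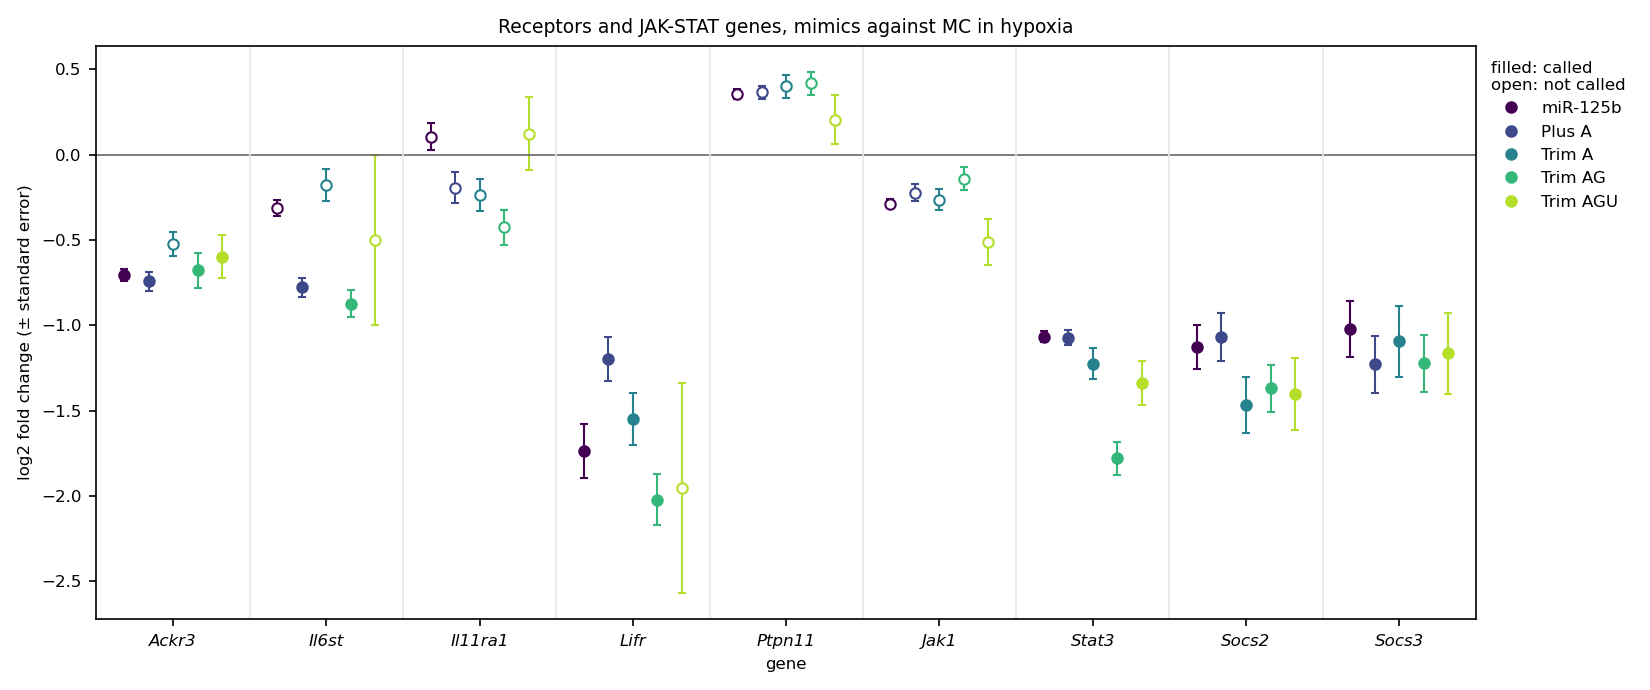
Log2 fold change (y axis, ± standard error) of 4 receptor genes and 5 JAK-STAT genes (x axis) for each mimic against MC in hypoxia, 3 libraries a group, with filled points for called genes. Stat3, Socs2 and Socs3 are filled and below 0 with all 5 mimics, whereas Jak1 and Ptpn11 are open throughout.

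NF-kB, a family of transcription factors that is known to act on many chemokine genes, had 15 listed subunits, kinases and inhibitors. Against MC in hypoxia, 3, 3, 3, 4 and 2 of 15 rose and 2 fell with each mimic. Over all genes, 9.43% to 17% were called higher and 12.4% to 20.2% lower in these comparisons. *Nfkb2* and *Relb*, which form the dimer of the non-canonical pathway, rose with all 5 mimics, *Relb* with a log2 fold change of 0.65 (SE 0.11, adjusted p = 0.00060) with Plus A and 1.05 (SE 0.12, adjusted p = 0.000185) with Trim A. *Ikbkg*, the regulatory subunit of the kinase that activates the canonical pathway, fell with all 5, with a log2 fold change of -1.32 (SE 0.076, adjusted p = 1.04e-07) with miR-125b. *Rela*, the canonical subunit, was at 98.5 CPM on average and was called in none. In hypoxia against normoxia, *Relb* rose under all 5 mimics, with a log2 fold change of 1.49 (SE 0.15, adjusted p = 4.05e-05) with Plus A and 2.27 (SE 0.13, adjusted p = 2.81e-06) with Trim AG.

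Promoters from 250 bases before to 50 after the gene start were matched in RefSeq (GRCr8) for 7 of the 10 genes, and not for *Ccl2*, *Lif* and *Csf1*. The NF-kB consensus motif, searched on both strands, was found in 4 of these 7, *Il6*, *Cxcl1*, *Ccl7* and *Ccl20*, and in 7.51% of all 33469 promoters. ACGTG, the core of hypoxia response elements, was in 0 of 7 and in 19.3% of all promoters, and TGANTCA, the AP-1 motif, in 2 of 7 (*Ccl7* and *Il11*) and 7.33%. These matches describe letters and not binding. The promoters of *Il6* (chr4:5894526-5894825, minus strand) and *Cxcl1* (chr14:17479272-17479571, minus strand) are shown, with the matches in capitals, because both hold the motif while *Il6* was called higher in hypoxia under 4 mimics and *Cxcl1* under none.
Il6: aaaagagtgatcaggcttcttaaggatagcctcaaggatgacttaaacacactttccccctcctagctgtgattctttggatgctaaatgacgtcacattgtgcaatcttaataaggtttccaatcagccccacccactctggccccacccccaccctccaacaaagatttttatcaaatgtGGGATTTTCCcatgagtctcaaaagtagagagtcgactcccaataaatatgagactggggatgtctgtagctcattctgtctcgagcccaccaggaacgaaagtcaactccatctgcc
Cxcl1: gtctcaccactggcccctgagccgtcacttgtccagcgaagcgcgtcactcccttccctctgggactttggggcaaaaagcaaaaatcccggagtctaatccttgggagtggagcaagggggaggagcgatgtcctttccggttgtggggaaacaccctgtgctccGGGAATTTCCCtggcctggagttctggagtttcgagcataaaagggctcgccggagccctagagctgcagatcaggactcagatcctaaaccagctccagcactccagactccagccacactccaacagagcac
Counted from the gene start, the match of *Il6* lies at bases -68 to -59, and 2 overlapping matches of *Cxcl1* cover bases -84 to -74.

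Of 8 tested genes for proteins that bind cytokine mRNA and control its decay, 1, 1, 0, 1 and 0 rose and 1, 1, 2, 2 and 1 fell against MC in hypoxia, in the same order of mimics. Over all genes, 9.43% to 17% were called higher and 12.4% to 20.2% lower in these comparisons, so that the counts were near the background. *Zfp36*, tristetraprolin, which destabilises cytokine mRNA, rose with a log2 fold change of 1.15 (SE 0.11, adjusted p = 3.86e-05) with Trim AG, and *Tia1*, a translational silencer, fell with a log2 fold change of -1.27 (SE 0.075, adjusted p = 3.17e-06). *Zfp36l1*, a paralogue of *Zfp36*, fell with a log2 fold change of -1.45 (SE 0.13, adjusted p = 3.41e-05).

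Other chemokines were few. Of 28 listed, 18 were in the tables and 2 to 4 were tested in a comparison, and *Cxcl16*, a membrane-bound chemokine and scavenger receptor, was the 1 with a mean of at least 1 CPM. *Cxcl16* fell against MC with all 5 mimics, with a log2 fold change of -0.95 (SE 0.12, adjusted p = 3.36e-05) with miR-125b and -1.19 (SE 0.14, adjusted p = 4.42e-05) with Plus A, and in hypoxia against normoxia under all 5, with a log2 fold change of -1.71 (SE 0.17, adjusted p = 4.33e-05) with Trim AG. Of 42 other cytokines 13 to 16 were tested in a comparison. *Il33*, a nuclear alarmin, fell against MC with all 5, from 16.4 ± 0.338 CPM (SD, n = 3) in Hypoxia MC to 0.706 ± 0.223 CPM in Hypoxia Trim AG. *Il23a* and *Spp1*, which encodes osteopontin, rose in hypoxia against normoxia under all 5 mimics, *Spp1* with log2 fold changes of 0.74 with miR-125b and 1.61 with Trim A.

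The genes whose group means were most like those of each member over the 11 groups are given as a description. For *Cxcl12* they were *Pygb*, *Tnr* and *Ntn3*, with Pearson's r of 0.993, 0.984 and 0.983 across group means of log2(CPM + 0.5), among 11903 genes. For *Csf1* they were *H6pd*, *Cadm1* and *Gja1* (r of 0.991, 0.988 and 0.986), and for *Il6* *Ifngr2*, *Zpbp* and *Cox19* (0.973, 0.964 and 0.960). Those of *Lif* were *Trib1*, *Pla2g4a* and *Dock5* (0.977, 0.969 and 0.967). *Cxcl1* was most like *Cd14*, *Msrb2* and *Pdlim2* (0.952, 0.933 and 0.926). *Ccl7* went with *Ramp2*, *Klhdc3* and *Gamt* (0.908, 0.893 and 0.877) and *Il11* with *Cabyr*, *Cpm* and *Diexf* (0.918, 0.917 and 0.906). Among the members themselves, *Cxcl12* and *Csf1* had r = 0.96 and *Cxcl12* and *Il6* r = -0.88, over groups that share the split by oxygen.

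*Cd14* is a marker of monocytes, so the marker lists are given beside these values. The summed level of 8 macrophage and leukocyte markers was 24.4 to 26.1 CPM in Hypoxia MC, 18.0 to 21.9 CPM in Hypoxia miR-125b and 14.0 to 14.4 CPM in Hypoxia Trim AG. The other hypoxia groups were at 15.0 to 17.0 (Plus A), 14.9 to 21.0 (Trim AGU) and 17.6 to 21.1 CPM (Trim A). In normoxia it ran from 14.2 to 25.3 CPM. *Cd14* made up most of it, at group means of 10.9 to 21.9 CPM, and of the 4 markers tested 1, 2, 1, 2 and 1 fell against MC in the order of mimics above, while *Itgam* rose with Trim AG. The defining marker *Ptprc* was at or near 0, as given earlier. The summed level of 8 fibroblast markers, which includes the collagens *Col1a1* and *Col3a1*, was 31537 to 32637 CPM in Hypoxia MC, 42996 to 45237 with miR-125b and 9383 to 18883 with Trim AG. Against MC in hypoxia 3, 3, 3, 6 and 3 fibroblast markers fell and 1, 1, 0, 0 and 0 rose. For these marker counts the shares over all genes were 9.43% to 17% called higher and 12.4% to 20.2% called lower. *Col1a1*, the most abundant, rose with a log2 fold change of 0.76 (SE 0.029, adjusted p = 4.81e-09) with miR-125b and 0.64 (SE 0.035, adjusted p = 3.21e-07) with Plus A, and fell with -0.83 (SE 0.24, adjusted p = 0.0155) with Trim AG, where *Col3a1* fell with a log2 fold change of -1.48 (SE 0.20, adjusted p = 0.000257). Of 3 endothelial markers in the tables only *Tek* was tested, at group means of 1.01 to 4.38 CPM, and fell against MC with all 5 mimics, while *Vwf* and *Emcn* stayed at or below 0.144 and 0.0230 CPM. What part these markers have in the results was not tested.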

How the data were processed

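RNA of H9C2 cells was measured in poly-A libraries that were not stranded. The authors deposited 11 tables with unnormalized read counts per gene and library and an FPKM value, a count scaled by gene length and library total. In a further table the authors gave group means of normalized counts, an expression signal with no libraries of its own. HISAT2 and StringTie are named in the submitters' processing notes; the genome build and their settings are not given in the sources used here. Columns with the authors' own fold changes and p-values were not used. The labels number the Trim mimics and write Plus A as an added A; they were read as Trim A, Trim AG and Trim AGU in the order of the treatment text.

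Tables were joined on the gene identifier, and a gene left out of a table was given 0 counts, where other tables held at most 1. CPM used the library total, and counts of a library agreed across the tables that hold it. Each of 18 comparisons and 4 interactions was fitted on its own groups with edgeR 4.0.16 in R 4.3.3 (TMM, filterByExpr, quasi-likelihood test, Benjamini-Hochberg adjustment over all genes tested). The SE was taken as the size of the log2 fold change divided by the root of its F value. Alternatives were DESeq2 1.42.0, library size alone, no filter, 1 fit of all libraries, a replicate block, other fold thresholds and each library left out. The members, gene lists, tests and alternatives were chosen with earlier results of these data known, and the removal of both first replicates of normoxia Plus A and miR-125b was added after seeing the counts. Of each other list, the 3 genes with the highest mean and the 3 called most often against MC and against normoxia, with a mean of at least 1 CPM, could be named. 1 gene of the JAK-STAT list is not reported here. The fits were tested on simulated counts. Of 2-fold changes put in, 69.7% were called for miR-125b and 33% for Trim AGU, each against MC in hypoxia. For the interaction with Trim AG, 63.6% were called. Of 4-fold changes, 94.9%, 90.8% and 86.7% were called in the same order. Of the calls, 9.44%, 5.43% and 5.73% were false. Precision is set by the spread between 3 libraries a group. Scripts used Python 3.11.15, pandas 2.3.3, numpy 2.4.6 and matplotlib 3.10.9. Overlapping and antisense genes and near-identical copies cannot be told apart in such counts.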

Additional observations from a re-analysis of the deposited data

Results flagged for a closer look

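The response of *Cxcl12* and of *Il6* to hypoxia differed between Trim AG and miR-125b, in a test of the difference itself. For *Cxcl12* the interaction was -0.98 (SE 0.094, adjusted p = 3.61e-05) in edgeR's quasi-likelihood test, from log2 fold changes of -1.53 with miR-125b and -2.47 with Trim AG. All 3 Trim AG libraries were below all 3 miR-125b libraries in hypoxia and also in normoxia. For *Il6* the interaction was 1.20 (SE 0.20, adjusted p = 0.00147), from 0.65 and 1.89. All 3 Trim AG libraries were above all 3 miR-125b libraries in hypoxia and below them in normoxia. The Hypoxia Trim AG libraries were also the deepest, at 39940087 to 42672584 counts, and the part of depth in these results was not tested.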

How the results depend on the processing

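Under the alternatives other than the fold thresholds, which are given as counts of calls, 2133 values of single members were computed. Of these, 0 reversed a called direction, 35 lost a call and 30 gained one, and 33 of 46 called results kept their call in every such alternative run for them. Calls of members numbered 18 against MC in hypoxia, 4 against miR-125b in hypoxia, 3 against miR-125b in normoxia, 19 in hypoxia against normoxia and 2 as interactions. With a fold threshold of 2 they numbered 7, 1, 1, 10 and 1, respectively. The shares over all genes were computed at a fold of 1.5 alone, so that counts at other fold thresholds have no background beside them. Without a fold threshold, calls against miR-125b numbered 8 in hypoxia and 6 in normoxia, and with all libraries in 1 fit 7 in hypoxia. DESeq2 lost 0 calls and gained 2, library size alone lost 3 and gained 2, and 1 fit of all libraries lost 0 and gained 9. The cause of these changes was not tested. Leaving out 1 library at a time gave 13 to 19 calls against MC, 2 to 5 against miR-125b in hypoxia, 2 to 4 in normoxia, 17 to 20 for hypoxia against normoxia and 2 to 4 interactions. Calls against miR-125b in hypoxia numbered 2 without Hypoxia miR-125b replicate 1 or 3, and interactions 4 without Hypoxia Trim AGU replicate 1. Removal of the first replicates of both Normoxia miR-125b and Normoxia Plus A, chosen after seeing the data, was run for 2 comparisons. These were Plus A against miR-125b in normoxia and the interaction for Plus A, with 0 calls of members in each. The comparisons that hold the calls in normoxia and as interactions were not refitted in that setting, so it does not bear on them.

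Replicate numbers did not pair the samples. Deviations of same-numbered libraries correlated at -0.23 to 0.089, and in 0 of 18 comparisons did every pair exceed 0.1. With the replicate block, calls numbered 18, 3, 3, 19 and 2, with 2 members losing a call, *Ccl2* with Trim AGU against MC (adjusted p = 0.0597) and *Cxcl12* with Trim AGU against miR-125b in hypoxia (adjusted p = 0.0760), and 1 gaining one. *Ccl2*, *Ccl20* and *Cx3cl1* were limited by depth, at no more than 45, 4 and 12 counts per library.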
